A study of Mus musculus with 12 samples.

Results

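The 9 genes described here mark the medial habenula: the tachykinin precursors Tac1 and Tac2, the nicotinic acetylcholine receptor subunits Chrna3, Chrnb3 and Chrnb4, the acetylcholine synthesis and transport genes Chat, Slc5a7 and Slc18a3, and the transcription factor Pou4f1. They are a list of names, and the rule that names them uses no measured value, though the list was chosen with earlier results of these data known. All 9 were matched by Ensembl identifier to the 17416 genes of the table. The list serves as a measure of how much medial habenula a punch of the neighbouring lateral habenula carried. All libraries came from C57BL/6 mice 9 weeks old, whose brains were cut into 500 µm vibratome slices, punched under a microscope and frozen. There were 4 libraries from mice labelled susceptible to social defeat stress, 4 from mice labelled resilient to it and 4 from non-defeated mice. Each was made from 100 pg of RNA with a SMART-Seq v4 low-input kit. The labels do not say whether each library is a separate mouse, but the deposited behaviour sheet lists 1 mouse ID and 1 score for each library.

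The medial habenula lies beside the third ventricle and sends its output to the interpeduncular nucleus. Its dorsal part releases the tachykinin substance P, made from Tac1, and its ventral part releases acetylcholine together with glutamate, while Tac2, the precursor of neurokinin B, is a standard marker of medial habenula neurons. Nicotinic receptors containing the α3 and β4 subunits are denser there than almost anywhere else in the brain. The lateral habenula receives other inputs and uses glutamate, and Tac1 and Pou4f1 can be expressed outside the medial habenula, Pou4f1 also in lateral habenular neurons.

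Chrna3 and Chrnb4 are neighbours on the minus strand of chromosome 9 and their promoters are shown because both genes were low in the same libraries; the promoter of Tac2 on the plus strand of chromosome 10 is shown because that gene was low with them. The windows run from 250 bases before to 50 bases after the RefSeq start of the gene on GRCm38.p6, which for Chrnb4 lies inside the gene span of the annotation given further on: chr10:127724228-127724527 for Tac2, chr9:55026513-55026812 for Chrna3 and chr9:55048495-55048794 for Chrnb4. Capitals mark every match, on either strand, to the GC box GGGCGG or to CACCC.
Tac2: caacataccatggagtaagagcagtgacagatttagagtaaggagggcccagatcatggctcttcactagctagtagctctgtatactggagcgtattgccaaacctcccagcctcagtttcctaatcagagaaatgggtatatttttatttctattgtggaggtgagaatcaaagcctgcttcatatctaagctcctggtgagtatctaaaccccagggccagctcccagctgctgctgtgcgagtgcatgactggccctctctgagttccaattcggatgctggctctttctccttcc
Chrna3: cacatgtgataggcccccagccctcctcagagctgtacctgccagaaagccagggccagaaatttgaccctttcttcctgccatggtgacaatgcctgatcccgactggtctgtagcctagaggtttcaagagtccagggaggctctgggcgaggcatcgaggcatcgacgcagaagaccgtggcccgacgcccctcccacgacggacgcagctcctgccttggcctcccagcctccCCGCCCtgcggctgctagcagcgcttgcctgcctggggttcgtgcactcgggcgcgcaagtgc
Chrnb4: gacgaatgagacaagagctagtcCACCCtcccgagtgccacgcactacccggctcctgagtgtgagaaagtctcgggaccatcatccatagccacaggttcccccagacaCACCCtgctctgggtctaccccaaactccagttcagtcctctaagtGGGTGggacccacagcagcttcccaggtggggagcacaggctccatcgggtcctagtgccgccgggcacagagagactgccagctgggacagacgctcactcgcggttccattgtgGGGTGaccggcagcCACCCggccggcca

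The Chrna3 window held 1 GC box and no CACCC, the Chrnb4 window held 5 CACCC and no GC box, and the Tac2 window held neither. No matched bases of the 2 motifs overlapped. A GC box occurred in 35.7% and CACCC in 57.5% of 32851 RefSeq mouse promoters of the same length. Of the other members, Tac1 had 1 GC box, Slc18a3 had 2 and 1 CACCC, Pou4f1 had 2, and Chat and Slc5a7 had neither motif. A match describes these letters only.

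On the GRCm38 annotation the Chrna3 gene spanned chr9:55010111-55026562 and Chrnb4 chr9:55028154-55048779. Tac2 spanned chr10:127724478-127731768, Tac1 chr6:7554879-7565834 and Chrnb3 chr8:27368711-27399730, all on the plus strand. Slc5a7 spanned chr17:54273590-54299034 and Pou4f1 chr14:104461676-104467999, both on the minus strand. Slc18a3, which loads acetylcholine into vesicles, is a gene of 1 exon at chr14:32462438-32464850 inside the span of Chat (chr14:32408203-32465989) on the same strand, with 0 exonic bases shared. The antisense gene Gm2990 also overlaps the span of Chat, with 0 exonic bases shared, and the use of strand in counting is not given in the sources used here.

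Depth was 33.3 to 47.7 M reads (M, 1000000 reads) per library, with means of 39.3 ± 3.36 M in susceptible, 40.7 ± 5.27 M in resilient and 43.4 ± 4.14 M in non-defeated libraries (SD, n = 4 each). Levels are CPM (counts per M reads) after trimmed-mean (TMM) scaling. Fold changes are differences between group means of log2(CPM + 1), a scale on which changes of low genes come out too small. Tests are limma-trend across 17114 genes, called at a Benjamini-Hochberg adjusted p under 0.05. A listing of 0 allows up to 3 reads, or 0.0628 to 0.0901 CPM, and covers counting error only. In the titles the letter H goes with all non-defeated libraries and with susceptible replicates 1 and 2, and N with all resilient libraries and with susceptible replicates 3 and 4; the labels do not say what the letters mean. Resilient and non-defeated libraries share no letter, so a fit with the letter as a term compares them only through the susceptible libraries.

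The 9 genes separated into a group that was abundant and varied widely, a pair that was abundant and varied less, and a group that was scarce. Per kilobase of exon, Tac2 was highest with a mean level of 22.7 ± 22.4 CPM per kilobase (SD) over the 12 libraries, a spread wide enough to reach the next gene. Pou4f1 at 7.06, Tac1 at 6.80, Chrnb4 at 5.96 and Chrna3 at 4.83 CPM per kilobase followed, each nearer to its neighbour in this order than the SD over libraries, the smallest of which was 1.29. Slc18a3 averaged 1.69, Chat 0.919, Slc5a7 0.759 and Chrnb3 0.414 CPM per kilobase, and neighbours among these 4 were also within their spread.

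The medial habenula tachykinin Tac2 was lowest in resilient libraries and highest in 1 non-defeated library. It had 21.2, 30.0, 16.9 and 29.8 CPM in susceptible replicates 1 to 4, 7.39, 8.69, 12.7 and 20.7 CPM in resilient replicates 1 to 4, and 32.8, 17.6, 118 and 59.8 CPM in non-defeated replicates 1 to 4. Resilient replicate 4 lay above the lowest susceptible and the lowest non-defeated library, so all groups overlapped. The means were 24.5 ± 6.49 CPM in susceptible, 12.4 ± 6.01 in resilient and 57.2 ± 44.5 in non-defeated libraries (SD, n = 4 each); without non-defeated replicate 3 the non-defeated mean was 36.7 CPM.

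Chrna3, the α3 ligand-binding subunit, followed the same order. It had 21.9, 28.6, 13.0 and 26.1 CPM in susceptible replicates 1 to 4, 5.39, 10.2, 2.13 and 14.9 CPM in resilient replicates, and 43.2, 11.2, 108 and 20.4 CPM in non-defeated replicates. Resilient replicate 3 was the lowest of the 12 and non-defeated replicate 3 the highest, and resilient replicate 4 lay inside the range of both other groups. The means were 22.4 ± 6.84 CPM in susceptible, 8.15 ± 5.58 in resilient and 45.7 ± 43.7 in non-defeated libraries, the last 24.9 CPM without non-defeated replicate 3.

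Chrnb4, the β4 subunit that assembles with α3, had 17.6, 25.03, 26.5 and 24.4 CPM in susceptible replicates 1 to 4. In resilient replicates it had 7.86, 8.93, 0.609 and 20.2 CPM, and in non-defeated replicates 41.3, 20.7, 63.4 and 9.57 CPM. Resilient replicate 3 held 26 Chrnb4 reads and 91 Chrna3 reads, while the other 11 libraries held at least 349 and 239. The means were 23.4 ± 3.94 CPM in susceptible, 9.41 ± 8.10 in resilient and 33.7 ± 23.8 in non-defeated libraries, with 23.8 CPM for non-defeated libraries without replicate 3.

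Chrnb3, an accessory β3 subunit that joins other subunits in the receptor, ranged from 0 to 7.12 CPM and did so within groups. It had 6.46, 0.0286, 0 and 7.12 CPM in susceptible replicates, 0.361, 4.45, 3.75 and 4.06 CPM in resilient replicates and 0.328, 0, 4.54 and 0.526 CPM in non-defeated replicates. Susceptible replicates 2 and 3 held 1 read and 0 reads, beside 282 and 273 reads in susceptible replicates 1 and 4. All 3 groups overlapped.

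The acetylcholine genes were scarce and their detection differed between libraries. Chat, which makes acetylcholine, had 3.69, 2.29, 0 and 6.42 CPM in susceptible replicates, 0, 1.60, 0 and 4.36 CPM in resilient replicates and 7.70, 0, 24.8 and 0.977 CPM in non-defeated replicates, so 4 of the 12 libraries held no Chat read. Slc5a7, the high-affinity choline transporter, had 4.03, 2.77, 1.67 and 2.40 CPM in susceptible replicates, 0, 5.398, 0 and 6.31 CPM in resilient replicates and 5.69, 5.15, 15.6 and 2.41 CPM in non-defeated replicates. The 2 libraries without a Slc5a7 read, resilient replicates 1 and 3, had none of Chat either. Slc18a3 had 4.61, 4.005, 1.62 and 3.60 CPM in susceptible replicates, 3.15, 1.38, 1.83 and 2.47 CPM in resilient replicates and 1.58, 0, 21.7 and 3.01 CPM in non-defeated replicates, so resilient replicates 1 and 3, listed at 0 for Chat and Slc5a7, held it. Non-defeated replicate 2, at 0 for Chat and Slc18a3, had Slc5a7.

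The summed level of the 3 cholinergic genes was 12.3, 9.1, 3.3 and 12.4 CPM in susceptible replicates, 3.2, 8.4, 1.8 and 13.1 CPM in resilient replicates and 14.97, 5.1, 62.1 and 6.4 CPM in non-defeated replicates. Non-defeated replicate 3 was 4.15 times the next highest library and the other groups overlapped below it. Fewer medial habenula cells in a punch and less RNA per cell cannot be told apart in these bulk libraries.

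Tac1 and Pou4f1 varied less than the other members, and their resilient means were not below those of the other groups. Tac1 had 23.9, 22.7, 24.0 and 16.3 CPM in susceptible replicates, 29.3, 21.3, 28.7 and 18.6 CPM in resilient replicates and 24.2, 16.6, 28.2 and 23.4 CPM in non-defeated replicates. Pou4f1 had 23.1, 37.4, 29.6 and 27.6 CPM in susceptible replicates, 37.8, 25.5, 57.5 and 28.6 CPM in resilient replicates and 24.4, 16.8, 54.5 and 33.2 CPM in non-defeated replicates. Pou4f1, a POU-domain factor that habenular neurons keep into adulthood, was highest in resilient replicate 3, the library with the fewest Chrna3 and Chrnb4 reads. Over the 12 libraries the SD of log2(CPM + 1) was 0.27 for Tac1 and 0.49 for Pou4f1, against 1.07 for Tac2, 1.31 for Chrna3 and 1.36 for Chrnb4, and the median SD of the 7766 genes with a mean of 10 to 100 CPM was 0.40. The 4 scarce members had SDs from 1.05 for Slc18a3 to 1.52 for Chat, against a median of 0.71 for the 4773 genes with a mean of 1 to 10 CPM.

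**Figure D1:**
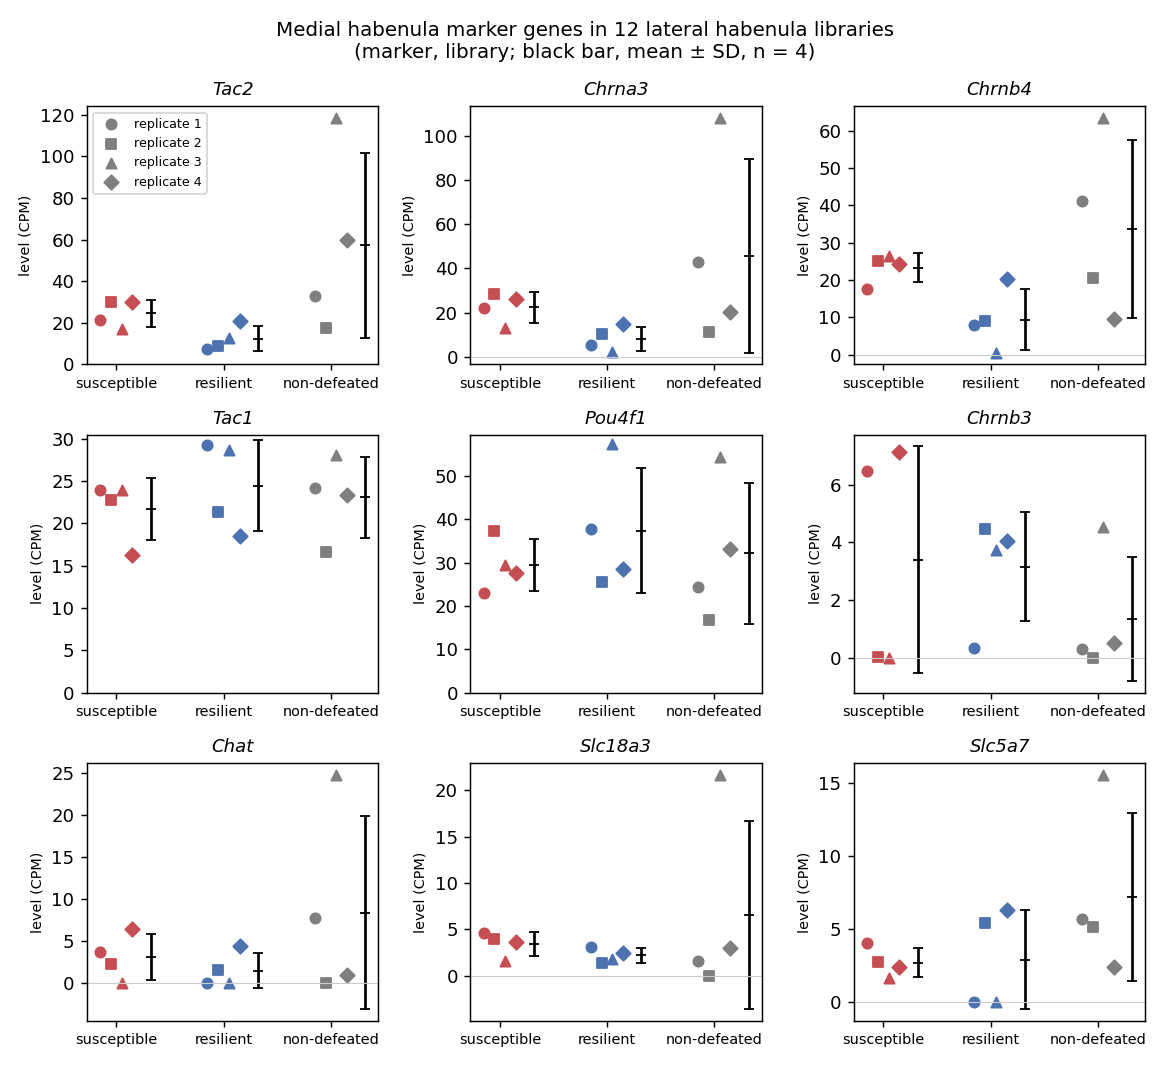
Level of each marker gene in CPM (vertical axis, linear, one scale per gene) in 4 susceptible, 4 resilient and 4 non-defeated libraries; each point is 1 library, its shape gives the replicate number, and black bars are mean ± SD. Non-defeated replicate 3 stood highest for Tac2 (118 CPM), Chrna3 (108 CPM) and Chrnb4 (63.4 CPM), while Tac1 lay between 16.3 and 29.3 CPM in all libraries.

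Between susceptible and non-defeated mice 0 of the 9 members passed, where 0% of all genes tested did, and 0 had an unadjusted p under 0.05, where 3.55% of all genes did. Tac2 differed by -0.90 ± 0.48 (log2, SE), with an unadjusted limma p of 0.0825 and an adjusted p of 0.999. Chrna3 differed by -0.57 ± 0.61, Chrnb4 by -0.22 ± 0.67 and Slc5a7 by -0.94 ± 0.68. Chat differed by -0.49 ± 0.93, Slc18a3 by 0.13 ± 0.71 and Chrnb3 by 0.62 ± 0.78, and Tac1 (-0.08 ± 0.25) and Pou4f1 (-0.02 ± 0.34) had values near 0. The median log2 fold change of the members was -0.22, beside 0.01 over all genes, and 0 members had groups that did not overlap, where 2.16% of all genes did. edgeR's quasi-likelihood test and DESeq2 on recovered reads also called 0 members, where DESeq2 passed 0.135% of all genes. Without non-defeated replicate 3 the values of Chat and Chrnb4 were 0.34 and 0.18, and that of Chrna3 was -0.00335. Tac2 was then at -0.44, Slc5a7 at -0.52, Slc18a3 at 0.98, Chrnb3 at 1.15, Pou4f1 at 0.27 and Tac1 at 0.02.

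Between resilient and non-defeated mice 0 of the 9 members passed the limma test, where 0.0117% of all genes did, though Tac2, Chrna3 and Chrnb4 had the lowest unadjusted p of the members. Chrna3 had a difference of -2.12 ± 0.61 on the log2 scale (unadjusted p = 0.00391, adjusted p = 0.540 in limma). Chrnb4 had a difference of -1.92 ± 0.67 (unadjusted p = 0.0125, adjusted p = 0.566 in limma) and Tac2 of -1.89 ± 0.48 (unadjusted p = 0.00147, adjusted p = 0.410 in limma). Those 3 were the members with an unadjusted p under 0.05, all lower, where 2.96% of all genes were lower at that p. Slc5a7 differed by -1.41 ± 0.68, Chat by -1.25 ± 0.93 and Slc18a3 by -0.32 ± 0.71, while Chrnb3 differed by 0.997 ± 0.78, Pou4f1 by 0.26 ± 0.34 and Tac1 by 0.08 ± 0.25. The median of the members was -1.25, beside 0.02 over all genes, and 0 members had groups that did not overlap, where 3.68% of all genes did.

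DESeq2 on the recovered reads called 2 members in that comparison, Tac2 at -2.22 (adjusted p = 0.00417) and Chrna3 at -2.50 (adjusted p = 0.0206), where 0.516% of 17044 genes passed, and edgeR's quasi-likelihood test called 0. The authors' deposited table lists, over the 3 groups, an FDR of 0.00938 for Tac2, 0.0606 for Chrna3 and 0.657 for Chrnb4, and 0.99999 for each of the other 6. Its log2 ratios of resilient over non-defeated were -2.21 for Tac2, -2.49 for Chrna3 and -1.84 for Chrnb4 in the authors' deposited table. Without non-defeated replicate 3 the limma values were -1.43 for Tac2, -1.55 for Chrna3, -1.53 for Chrnb4, -0.99 for Slc5a7, -0.42 for Chat and 0.53 for Slc18a3, and those of Chrnb3 and Pou4f1 were 1.53 and 0.55. Without resilient replicate 3 that of Chrnb4 was -1.20. With the title letter as a term the limma differences were -1.73 ± 0.86 for Tac2, -1.70 ± 1.09 for Chrna3 and -2.19 ± 1.20 for Chrnb4, and 0 members passed.

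Between susceptible and resilient mice 0 of the 9 members passed, where 0.0526% of all genes did. Chrnb4 differed by 1.70 ± 0.67 (unadjusted p = 0.0238, adjusted p = 0.99997 in limma) and Chrna3 by 1.54 ± 0.61 (unadjusted p = 0.0246, adjusted p = 0.99997 in limma), higher in susceptible libraries. These 2 had an unadjusted p under 0.05, where 1.61% of all genes were higher at that p, and edgeR's quasi-likelihood test and DESeq2 called 0 members, where DESeq2 passed 0.223% of all genes. Tac2 differed by 0.99 ± 0.48, Chat by 0.76 ± 0.93, Slc5a7 by 0.47 ± 0.68 and Slc18a3 by 0.45 ± 0.71, while Chrnb3 (-0.38 ± 0.78), Pou4f1 (-0.28 ± 0.34) and Tac1 (-0.15 ± 0.25) had negative values. The median was 0.47, beside -0.01 over all genes, and 0 members had groups that did not overlap, where 2.52% of all genes did. Without resilient replicate 3 the value of Chrnb4 was 0.98. The comparisons with non-defeated mice share those libraries, and the 2 comparisons with resilient mice share theirs. Only the susceptible group held both title letters. There Tac2 was 16.9 and 29.8 CPM under N and 21.2 and 30.0 CPM under H. Chrna3 was 13.0 and 26.1 CPM under N and 21.9 and 28.6 CPM under H. Chrnb4 was 26.5 and 24.4 CPM under N and 17.6 and 25.03 CPM under H.

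**Figure D2:**
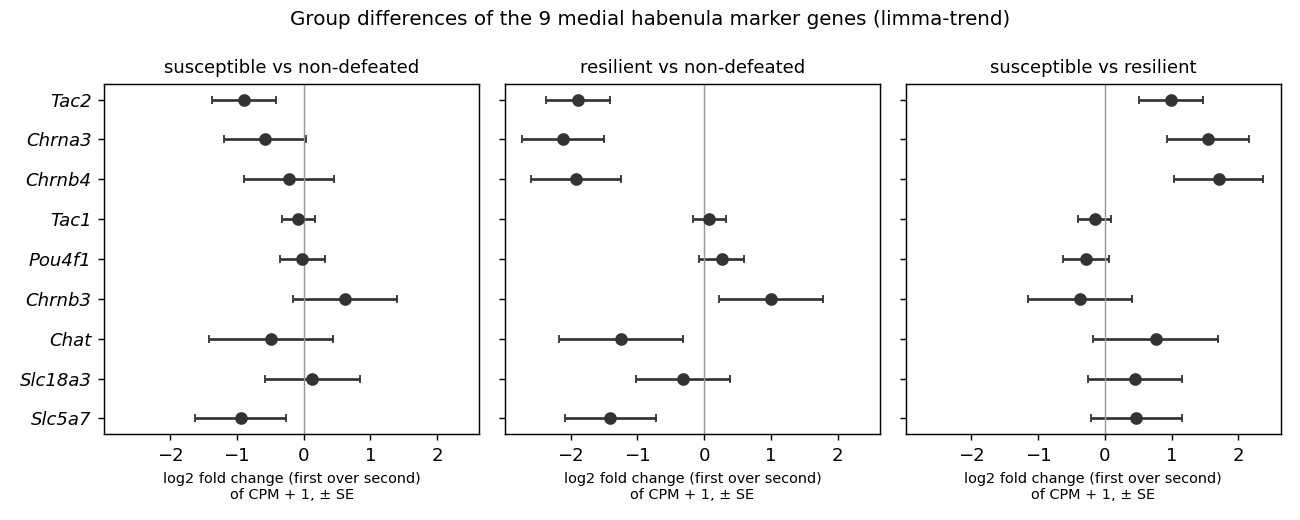
Log2 fold change of CPM + 1 for each marker gene (horizontal axis, first-named group over second) in the 3 comparisons; points are limma-trend estimates and bars 1 SE. In resilient over non-defeated libraries Tac2, Chrna3 and Chrnb4 lay at -1.89, -2.12 and -1.92, and no gene passed at an adjusted p under 0.05 in limma.

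The summed level of the 9 members, read as a measure of medial habenula content, was 127, 153, 113 and 144 CPM in susceptible replicates 1 to 4, 91.3, 87.5, 107 and 120 CPM in resilient replicates and 181, 88.0, 439 and 153 CPM in non-defeated replicates. The groups overlapped and non-defeated replicate 3 was 2.42 times the next highest library. Of these sums, Tac1 and Pou4f1 gave 43.9 to 60.2 CPM in susceptible, 46.8 to 86.2 in resilient and 33.4 to 82.6 in non-defeated libraries. Without Tac1 and Pou4f1 the sum was 79.6, 92.7, 59.7 and 99.8 CPM in susceptible replicates, 24.2, 40.7, 21.0 and 73.0 CPM in resilient replicates and 132.5, 54.6, 356.6 and 96.6 CPM in non-defeated replicates. Resilient replicates 1, 2 and 3 were then below every library of the other groups, and resilient replicate 4 was not. Leaving out Tac1 and Pou4f1, whose resilient means were not lower, was chosen after seeing the data. That choice favours such a separation, which is therefore only a description. With all 9 members non-defeated replicate 2, at 88.0 CPM, lay within the resilient range.

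Whether the 6 genes taken here as lateral habenula markers, among them Gap43, Htr2c and Slc17a6, are absent from medial habenula was not tested. They summed to between 1427 and 1809 CPM in susceptible, 1093 and 2038 CPM in resilient and 1492 and 1667 CPM in non-defeated libraries. Their range overlapped between groups. The most abundant of them, Gap43, averaged 932 CPM over the 12 libraries. It had 1554, 1024, 757 and 429 CPM in resilient replicates 1 to 4, so the resilient range of the sum largely follows this 1 gene. The numerator of the measure below also varied, from 21.0 to 73.0 CPM in resilient libraries. Gap43 enters only its denominator, the sum of the 6 lateral habenula markers. Per 100 CPM of them, the 7 members without Tac1 and Pou4f1 came to 5.4, 5.1, 3.7 and 7.0 CPM in susceptible replicates, 1.2, 2.5, 1.5 and 6.7 CPM in resilient replicates and 8.8, 3.7, 22.7 and 5.8 CPM in non-defeated replicates. Resilient replicate 4 lay in the range of the other groups on this measure too. Here again, leaving out Tac1 and Pou4f1 was chosen after seeing the data.

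**Figure D3:**
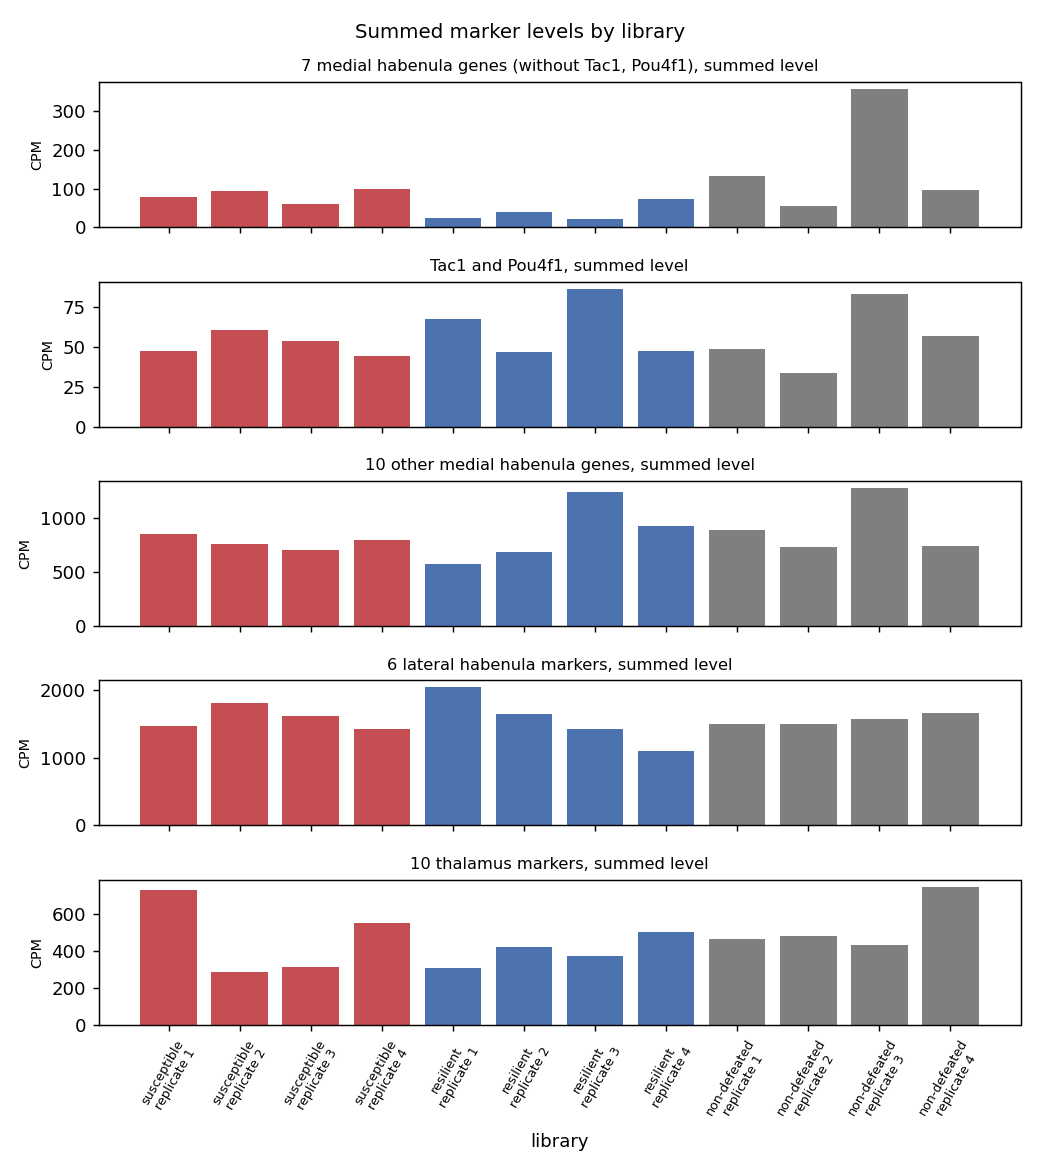
Summed level in CPM (vertical axes, from 0) of the 7 medial habenula genes without Tac1 and Pou4f1, of Tac1 and Pou4f1, of 10 other medial habenula genes, of 6 lateral habenula markers and of 10 thalamus markers in each of the 12 libraries, colored by group. The first sum was 356.6 CPM in non-defeated replicate 3 and 21.0 CPM in resilient replicate 3, while the sum of lateral habenula markers was 1572 and 1419 CPM in these libraries. Leaving Tac1 and Pou4f1 out of the first sum was chosen after seeing the data.

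The 10 other medial habenula genes were all measured, and 4 of them, Slc17a7 (183 CPM), Lrrc55 (179 CPM), Gng8 (120 CPM) and Kctd8 (82.9 CPM), were highest in non-defeated replicate 3. The sum of the 10 was 1276 CPM in that library and 1239 CPM in resilient replicate 3, the library lowest for Chrna3. The most abundant of them, the orphan receptor Gpr151 of habenular neurons, had 809 CPM in resilient replicate 3, the highest value of the 12, and 554 CPM in non-defeated replicate 3. Without Gpr151 the sum of the other 9 was 306 to 477 CPM in susceptible, 230 to 490 CPM in resilient and 404 to 722 CPM in non-defeated libraries, with 722 CPM in non-defeated replicate 3 and 430 CPM in resilient replicate 3. In resilient against non-defeated mice 0 of the 10 passed the limma test, where 0.0117% of all genes did. At an unadjusted p under 0.05, 2 of the 10 were lower, where 2.96% of all genes were. The genes named next, Gng8, Slc17a7 and Il18, had the smallest limma p of the 10 over the 3 comparisons. Gng8, a G-protein γ subunit, averaged 49.5 ± 13.2 CPM in resilient and 88.5 ± 21.6 CPM in non-defeated libraries (difference -0.83 ± 0.26, adjusted p = 0.560 in limma). Slc17a7, a vesicular glutamate transporter used by medial habenula neurons and by cortex, averaged 41.3 ± 18.5 CPM in resilient and 109 ± 58.2 CPM in non-defeated libraries (difference -1.33 ± 0.54, adjusted p = 0.621 in limma). Between susceptible and resilient mice 0 of the 10 passed, where 0.0526% of all genes did. Il18, a cytokine, was higher at an unadjusted p under 0.05, where 1.61% of all genes were higher. It averaged 27.1 ± 4.10 CPM in susceptible and 18.0 ± 2.66 CPM in resilient libraries. Between susceptible and non-defeated mice 0 passed and 0 had an unadjusted p under 0.05, where 0% and 3.55% of all genes did.

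Of 13 other nicotinic receptor subunits 6 were in the table and 5 passed the filter; Chrna6 was in the table and below the filter, and the other 7 were not analysed here. Chrna4, the α4 subunit of the commonest brain receptor, averaged 26.3 ± 11.9 CPM in susceptible, 27.4 ± 3.27 CPM in resilient and 44.0 ± 13.4 CPM in non-defeated libraries. Its differences from non-defeated libraries were -0.77 ± 0.29 in susceptible (adjusted p = 0.999 in limma) and -0.63 ± 0.29 in resilient (adjusted p = 0.673 in limma) mice. Chrnb2, the partner of α4, averaged 46.6 ± 13.8 CPM in susceptible, 57.2 ± 22.9 CPM in resilient and 44.2 ± 6.06 CPM in non-defeated libraries. Chrna7, the subunit of the homomeric receptor, averaged 7.90 ± 1.59 CPM in susceptible, 6.03 ± 4.25 CPM in resilient and 6.06 ± 1.10 CPM in non-defeated libraries. The muscle-type subunits Chrna1 and Chrnb1 averaged at most 1.46 CPM in every group. In each comparison 0 subunits passed, where at most 0.0526% of all genes did.

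Of the 6 partner genes that modify nicotinic receptors all 6 were tested and 0 passed in any comparison, where at most 0.0526% of all genes did. Lynx1, a membrane-anchored protein that damps the receptors, averaged 192 ± 28.7 CPM in susceptible, 135 ± 56.2 CPM in resilient and 231 ± 60.4 CPM in non-defeated libraries. Its difference was -0.82 ± 0.27 between resilient and non-defeated mice (adjusted p = 0.560 in limma). Ly6h, a relative of Lynx1, averaged 355 ± 47.1 CPM in susceptible, 277 ± 43.4 CPM in resilient and 348 ± 27.6 CPM in non-defeated libraries. Of the tachykinin receptors, Tacr1, the substance P receptor, averaged 35.6 ± 2.35 CPM in susceptible, 37.6 ± 10.9 CPM in resilient and 34.3 ± 10.3 CPM in non-defeated libraries. Tacr3, the neurokinin B receptor, averaged 0.332 CPM in susceptible, 2.03 CPM in resilient and 3.02 CPM in non-defeated libraries and had an adjusted p of 0.999 for susceptible against non-defeated mice in limma.

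Levels of blood and thalamus markers also varied between libraries. Blood markers, mostly hemoglobin genes, summed to 5687, 870, 1031 and 1748 CPM in susceptible replicates 1 to 4, 1387, 1024, 1230 and 2102 CPM in resilient replicates and 266, 567, 560 and 816 CPM in non-defeated replicates. All libraries of the defeated groups were above the highest non-defeated library. In limma 0 of the 5 genes passed in any of the comparisons, where at most 0.0526% of all genes did. In susceptible against non-defeated mice 5 were higher at an unadjusted limma p under 0.05, which 3.55% of all genes reached in either direction. The groups did not overlap for 3 of the 5 there, where 2.16% of all genes did not. In resilient against non-defeated mice they did not overlap for 5 of the 5, where 3.68% of all genes did not. Thalamus markers summed to 288 to 730 CPM in susceptible, 308 to 499 CPM in resilient and 433 to 745 CPM in non-defeated libraries, and the ranges overlapped. All 10 had negative log2 fold changes in resilient against non-defeated mice, with a median of -0.43 beside 0.02 over all genes. In susceptible against non-defeated mice 9 of the 10 were negative, with a median of -0.34 beside 0.01. None passed in limma, where 0.0117% and 0% of all genes did. The part of blood, thalamus or depth in the differences of Tac2, Chrna3 and Chrnb4 was not tested.

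Across the 12 libraries the members were not one co-varying set. Chrna3 and Chrnb4 had the highest Pearson correlation of log2(CPM + 1) of the 36 pairs, with r of 0.88 and Spearman rho of 0.81, and r was 0.86 without non-defeated replicate 3. By Spearman rho Tac2 and Chrna3 were highest, at 0.90. Chrna3 correlated with Chat at 0.86, with Tac2 at 0.84 and with Slc5a7 at 0.80. Tac1 and Pou4f1 correlated with each other at 0.71 and with Chrna3 at -0.09 and -0.04, but with Slc18a3 at 0.45 and 0.63. Several of these values depended on 1 library. Without non-defeated replicate 3, Tac1 and Pou4f1 correlated with Chrna3 at -0.42 and -0.53 and with Slc18a3 at 0.31 and 0.45. Tac2 with Slc18a3 went from 0.64 to 0.25, while Tac1 with Pou4f1 was 0.67 and Chrna3 with Tac2 was 0.72. Of the 36 pairs, 9 had r above 0.7 and 9 were negative, with a median of 0.39. These are descriptions over 12 libraries that share group differences, depth and input, with no test; the ratio of Chrna3 to Chrnb4 reads ran from 0.492 in susceptible replicate 3 to 3.50 in resilient replicate 3, with a median of 1.11.

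**Figure D4:**
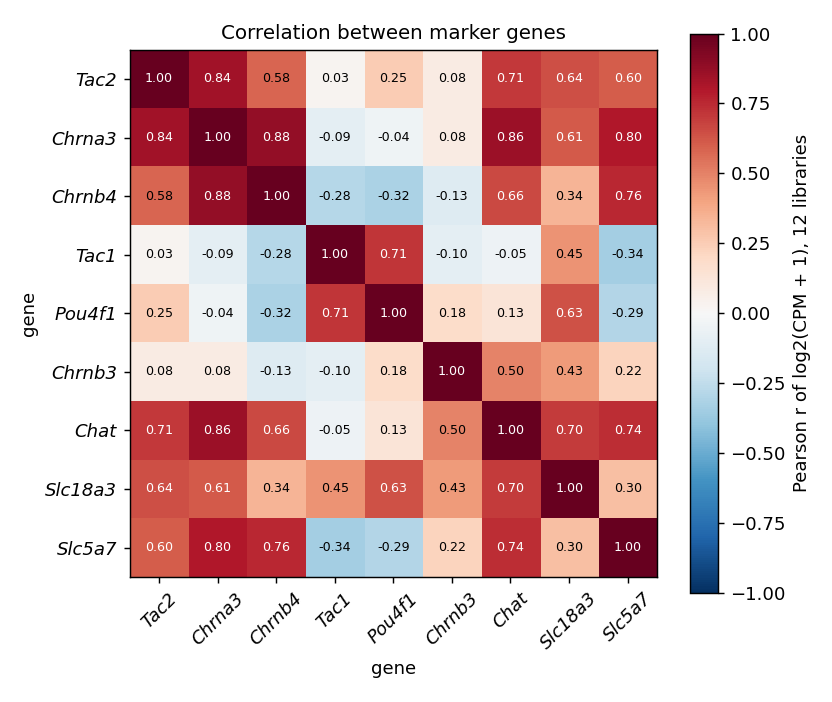
Pearson correlation of log2(CPM + 1) between each pair of marker genes over 12 libraries (color from -1 to 1, values printed in the cells). Chrna3 and Chrnb4 had r of 0.88, and Tac1 and Pou4f1 had r of 0.71 with each other and -0.28 and -0.32 with Chrnb4.

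The genes most like the mean of the members were chosen among 14705 others with a mean of at least 1 CPM, by Pearson correlation with the mean z-score of the 9 members over 12 libraries. The 8 most like were Necab3, Zfp110, Tspan18, Glce, Plch2, Oxld1, Fancd2 and Prkcq, with r from 0.85 for Necab3 to 0.81 for Prkcq. The 4 least like were Fkbp14 (-0.95), Gpr137b (-0.93), E130307A14Rik (-0.92) and Nr2c1 (-0.92). Without non-defeated replicate 3 the r of the 8 lay between 0.44 for Necab3 and 0.81 for Zfp110, and 0 of the 8 were among the 8 most like, while E130307A14Rik, at -0.89, was still among the 4 least like. Necab3 had 216 CPM in non-defeated replicate 3 and at most 109 CPM in any other.

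The interaction ratio of the deposited social avoidance sheet, a behavioural score of each animal, was 0.69, 0.63, 0.13 and 0.55 for susceptible, 1.18, 1.08, 1.20 and 2.24 for resilient and 1.26, 1.84, 1.12 and 1.57 for non-defeated libraries 1 to 4. In the authors' deposited table the correlation of each member's level with this ratio lay between -0.10 for Tac1 and 0.25 for Slc5a7.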

How the data were processed

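RNA-seq levels were measured in 12 lateral habenula libraries and grouped by their labels. Per the submitters' processing notes, the authors used featureCounts on GRCm38 (mm10) and edgeR; no version, aligner or strand setting is named in the sources used here. The deposited columns hold CPM plus a constant of 0.00608; with it removed, 100% of values lay within 0.001 read of a whole number of reads, which gave the recovered reads. The authors' deposited log2 ratios, p-value, FDR, score columns and correlation with the interaction ratio were only copied, and the interaction ratio is the authors' deposited ratio per animal.

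After removal of 1 line without a gene, 17416 genes were left and 17402 were matched to GENCODE M21. The deposited values are not raw counts, and the main test was robust limma-trend on log2(TMM-scaled CPM + 1) over all 12 libraries (R 4.3.3, limma 3.58.1, edgeR 4.0.16). The scaled CPM were computed from the recovered reads. Low genes were dropped with filterByExpr at a minimum count of 10, which took out 302 and kept 17114, with all 9 members. p-values were adjusted over all genes tested. Alternatives were other scalings, a pseudocount of 0.25, other filters, edgeR's quasi-likelihood test and DESeq2 1.42.0 on recovered reads, a replicate block, the title letter as a term and each library left out. The fit was tested on simulated data.

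The members and the marker lists were chosen with earlier results of these data known. Named genes were the 9 members, up to 4 genes of each other list with the smallest p, all other nicotinic subunits past the filter, and the 8 most and 4 least like genes. Libraries of 1 group differed far beyond counting error (chi-square per degree of freedom at least 72.2), so none was counted as a repeat. Promoter sequences came from RefSeq and matched 8 of the 9 members.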

Additional observations from a re-analysis of the deposited data

Results flagged for a closer look

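Of 99 sets of 4 libraries checked (members and summed marker lists in each group), 7 held 1 library set far apart from its other 3; chance gives about 1 in 20. Slc18a3 was 21.7 CPM in non-defeated replicate 3, where the next highest non-defeated library had 3.01 CPM. Chrnb3 was 4.54 CPM in the same library, where the next had 0.526 CPM. Tac1 was 16.3 CPM in susceptible replicate 4, where the next lowest susceptible library had 22.7 CPM. The sum of 9 other cholinergic neuron genes was 465.6 CPM in susceptible replicate 3, where the next had 311.8 CPM. Thalamus markers summed to 745 CPM in non-defeated replicate 4, where the next had 479 CPM. Endothelial markers summed to 15.4 CPM in susceptible replicate 4, where the next lowest had 49.9 CPM, and to 229 CPM in resilient replicate 4, where the next highest had 36.9 CPM.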

How the results depend on the processing

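The count of members called was 0 in all 3 comparisons under every alternative run except DESeq2 in resilient against non-defeated mice, where it was 2; the cause was not tested. Leaving out each library in turn, done with limma only, gave 0 members called in each comparison. The 2 DESeq2 calls were not refitted with a library left out. Resilient and non-defeated libraries share no title letter, so the fit with the letter as a term rests on the susceptible libraries and has wider errors. Replicate numbers did not pair the libraries: deviations of same-numbered libraries correlated between -0.194 and 0.127, 3 of 12 pairs were above 0.1, and 3 of 12 libraries correlated best with their own number; the fit with the replicate block called 0 members in each comparison.

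The log2 ratio of the summed level of the 9 members was -0.44 in susceptible against non-defeated, -0.85 in resilient against non-defeated and 0.40 in susceptible against resilient mice. Leaving out 1 library gave -0.79 to -0.02, -1.19 to -0.42 and 0.34 to 0.49. Without Tac1 and Pou4f1, chosen after seeing the data, it was -1.84 in resilient against non-defeated and 1.22 in susceptible against resilient mice. Signs of single members turned in a few fits. With the title letter as a term Tac1 was 0.037 and Pou4f1 0.00034 in susceptible against non-defeated, and Slc18a3 0.29 in resilient against non-defeated mice. With edgeR's quasi-likelihood test and DESeq2 Slc18a3 was -0.92 and -0.93 in susceptible against non-defeated mice. In susceptible against resilient mice they gave 0.11 and 0.12 for Chrnb3 and -0.096 and -0.085 for Slc5a7.

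With 1 library left out, the ranges were as follows in susceptible against non-defeated mice: Tac1 -0.22 to 0.050, Chrnb4 -0.69 to 0.18, Chat -1.22 to 0.34, Slc18a3 -0.52 to 0.98 and Pou4f1 -0.28 to 0.27. They were -0.064 to 0.20 for Tac1 and -0.97 to 0.53 for Slc18a3 in resilient against non-defeated mice, and -0.89 to 0.12 for Chrnb3 in susceptible against resilient mice.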
